A study of Mus musculus with 40 samples.

Results

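Guanylate binding proteins are large interferon-inducible GTPases, and 7 of their mouse genes are described here across splenic B cells with and without Bank1: Gbp2, Gbp2b, Gbp3, Gbp4, Gbp5, Gbp6 and Gbp7. They are 7 of the 19057 genes that the array's annotation names, and they were chosen by measured values: the 0 h difference between genotypes of Gbp2b and Gbp3 on these same arrays. Every probe carrying one of these 7 symbols was used, 12 probes in all, and each gene was represented by its probe with the highest mean over the 40 arrays. A probe was tested if it was above background on at least 5 of the 40 arrays, which 6 of the 12 probes and 5 of the 7 genes met.

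The study compared Bank1-/- with WT B cells, 5 biological replicates per group, on 40 bead arrays. Bank1 encodes a B cell adaptor of antigen receptor and Toll-like receptor signalling. CpG is DNA with unmethylated CG pairs that Toll-like receptor 9 senses. Both genotypes were on the C57BL/6 strain, and animal ages are not given in the sources used here. The groups were Bank1-/- and WT at 0 h (labelled control), Bank1-/- and WT after 6 h, Bank1-/- and WT after 24 h, and Bank1-/- and WT after 48 h of CpG. No group was cultured for those hours without CpG, so an effect of time in culture and one of CpG cannot be told apart. Backcrossing of the Bank1-/- mice to that strain ran for 9 generations. For WT mice the labels give littermates in one place and bought C57BL/6J animals in another. B cells were isolated by depleting other spleen cells, and RNA was taken from the whole population, so fewer cells of a type and less RNA per cell cannot be told apart.

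Values are log2 intensity after background correction and quantile normalization. Array-wide mean raw intensity ranged between 146 and 540, between 10396 and 16767 probes were detected per array, and the detection threshold lay between 6.26 and 7.02 on the log2 scale. The Bank1 probe averaged 9.54 ± 1.04, 6.76 ± 0.31, 7.71 ± 0.22 and 9.00 ± 0.18 in Bank1-/- cells at 0, 6, 24 and 48 h, against 11.38 ± 0.19, 7.81 ± 0.37, 10.19 ± 0.07 and 11.28 ± 0.21 in WT cells (SD, n = 5 each). Bank1-/- and WT arrays did not overlap at any of the 4 times, yet the probe remained above background on every Bank1-/- array at 0, 24 and 48 h, and its place relative to the deletion is not given in the sources used here. Of the B cell marker genes, 8 were on the array, and at 6 h between 6 and 8 of them were detected on each Bank1-/- array and likewise on each WT array. Of the Bank1-/- 0 h libraries, 2 stood apart from replicates 1 to 3, which lay between 0.150 and 0.163 from their nearest library. Replicate 5 lay at a distance of 0.165 from its nearest Bank1-/- 24 h library and 0.928 from its nearest library of the same group. Replicate 4 lay at 0.471 from its nearest WT 0 h library and 0.498 from its nearest library of the same group. Many of the results that rest on replicate 5 are given with and without it, but not all. Leaving out replicate 4 changed 1 member's call in the comparisons that use 0 h, that of Gbp7 in Bank1-/- cells at 24 h against 0 h (-0.17, limma adjusted p = 0.105, against -0.21 and 0.0372 with all arrays).

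Guanylate binding proteins are induced by interferon-gamma and, for several members, by type I interferon. They assemble on pathogen membranes and vacuoles, help to break them open and feed bacterial products to inflammasomes. In the mouse the genes form one cluster on chromosome 3 and another on chromosome 5. B cells carry both interferon receptors and Toll-like receptor 9, and the role of guanylate binding proteins in B cells is less described than that in macrophages.

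The 5 tested members are neighbouring protein-coding genes on chromosome 3 in the order Gbp5, Gbp7, Gbp3, Gbp2b, Gbp2, with a long non-coding RNA gene annotated between Gbp3 and Gbp2b, while Gbp4 and Gbp6 lie on chromosome 5. In GRCm38.p6, Gbp5 (Entrez gene 229898) spans chr3:142496934-142522344, Gbp7 (229900) chr3:142530336-142550151, Gbp3 (55932) chr3:142560016-142573213, Gbp2b (14468) chr3:142594816-142619179 and Gbp2 (14469) chr3:142620663-142638008. Only 1483 bases separate the end of Gbp2b from the start of Gbp2. Bank1 lies on the same chromosome at chr3:136053363-136326141, between 6.17 and 6.29 Mb from the nearer edge of these 5 genes. For genes this close to Bank1, an effect of the deletion and one of donor-strain DNA kept beside it through the backcross cannot be told apart. Gbp4 (17472) is at chr5:105115767-105139586 and Gbp6 (100702) at chr5:105270702-105295871.

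RefSeq promoter windows (GRCm38.p6, 250 bases before to 50 after a transcript start) were at hand for 5 of the 7 members, all on chromosome 3. The 250 bases before the start are shown for the 3 members whose genotype differences the results turn on. Among them are the adjacent Gbp2b and Gbp2, which differed between genotypes in opposite directions. Capitals mark matches on either strand to the core of the interferon-stimulated response element, which is GAAA, any 2 letters and GAAA again, a site through which interferons switch on genes. All 3 stretches read 5' to 3' on the forward strand.
Gbp2b, chr3:142594597-142594846: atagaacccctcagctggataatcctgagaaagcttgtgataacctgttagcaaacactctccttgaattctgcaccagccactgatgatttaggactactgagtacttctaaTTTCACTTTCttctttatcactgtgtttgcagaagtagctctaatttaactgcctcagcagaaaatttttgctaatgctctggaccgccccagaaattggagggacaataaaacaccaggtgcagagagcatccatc
Gbp2, chr3:142620413-142620662: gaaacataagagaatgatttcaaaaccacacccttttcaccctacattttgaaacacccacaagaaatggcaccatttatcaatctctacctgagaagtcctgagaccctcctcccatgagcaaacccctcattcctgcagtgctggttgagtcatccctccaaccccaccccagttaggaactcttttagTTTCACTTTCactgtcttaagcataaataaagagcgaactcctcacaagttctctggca
Gbp3, chr3:142559794-142560043: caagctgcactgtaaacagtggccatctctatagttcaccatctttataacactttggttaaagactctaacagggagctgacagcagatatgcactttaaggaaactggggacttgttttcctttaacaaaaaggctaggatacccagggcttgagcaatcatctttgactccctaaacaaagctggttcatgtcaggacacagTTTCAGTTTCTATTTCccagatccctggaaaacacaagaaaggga
The core was present in 5 of 5 members with a window, against 3.44% of all 32851 promoter windows of the same length. It stood at position -137 in Gbp2b and -59 in Gbp2, where the same 10 letters TTTCACTTTC were found, and at -45 and -39 in Gbp3, where both matches overlap. In Gbp5 it stood at -165 and in Gbp7 at -53. The gamma-activated sequence TTCNNNGAA, a site of the interferon-gamma response, was matched at -245 and -52 in Gbp5 and at -106 and -87 in Gbp7. No match to it was found in the windows of Gbp2b, Gbp2 and Gbp3, while 8.3% of all windows held at least 1 and 0.457% at least 2. A second Gbp3 window, at chr3:142560106-142560405, held neither motif. The core of the TATA box, TATAAA, was matched in 1 Gbp3 window, at -207 on the reverse strand. It is present on either strand in 13.6% of all windows. Each match describes letters of the reference build and not occupancy, and the sequence of the Bank1-/- mice is not given in the sources used here.

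Gbp2b, known earlier as mouse Gbp1, a member that acts against vacuolar parasites, was higher in Bank1-/- cells than in WT cells at all 4 times, with no overlap of arrays. At 0 h its log2 intensity was 7.93, 8.06, 7.93, 7.94 and 6.94 in Bank1-/- cells, against 6.07, 6.06, 6.08, 5.85 and 6.08 in WT cells. After 6 h it was 7.40, 7.60, 7.31, 8.05 and 7.31 in Bank1-/- cells, against 6.18, 6.25, 6.13, 6.23 and 6.44 in WT cells. The lowest Bank1-/- array thus exceeded the highest WT array at both times, and the low 0 h value of 6.94 is that of replicate 5. After 24 h the values were 6.99, 6.88, 6.92, 6.90 and 6.93 in Bank1-/- cells, against 6.19, 6.38, 6.45, 6.22 and 6.41 in WT cells. After 48 h they were 8.00, 8.10, 7.95, 7.84 and 8.08 in Bank1-/- cells, against 6.20, 6.36, 6.33, 6.26 and 6.43 in WT cells. The groups were closest at 24 h, where they still did not overlap.

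Gbp2b was above background on 20 of 20 Bank1-/- arrays and on 7 of 20 WT arrays, of which 0, 1, 3 and 3 of 5 belonged to 0, 6, 24 and 48 h. The 0 h contrast chose the gene and is therefore given as a description: the difference was 1.73, or at least 2.71-fold when WT is set to the lowest level above background (3.12-fold without Bank1-/- 0 h replicate 5). After 6 h the difference, Bank1-/- minus WT, was 1.29 ± 0.14 on the log2 scale (SE, limma adjusted p = 1.8e-08). After 48 h it was 1.68 ± 0.14 (limma adjusted p = 2.0e-10), the smallest p and the largest rise of all 18630 probes tested. After 24 h it was 0.59 ± 0.14 and did not pass with all 40 arrays (limma adjusted p = 0.102), but did without Bank1-/- 0 h replicate 5 (0.59, limma adjusted p = 0.000817). Because the offset used in background correction compresses dim values, these log2 differences understate ratios where WT is near background.

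Within Bank1-/- cells Gbp2b was lowest at 24 h. Its mean was 7.76 ± 0.46, 7.53 ± 0.31, 6.92 ± 0.05 and 7.99 ± 0.11 at 0, 6, 24 and 48 h (SD, n = 5 each), against 6.03 ± 0.10, 6.25 ± 0.12, 6.33 ± 0.12 and 6.32 ± 0.09 in WT cells. In Bank1-/- cells it fell by 0.61 at 24 h against 6 h (limma adjusted p = 0.000285), a difference that turned to 0.19 with the erythroid marker mean as a covariate (adjusted p = 0.752). At 48 h it was 1.07 higher than at 24 h (limma adjusted p = 3.1e-08). Differences from 0 h use values that chose the gene and are described with no test. They were -0.23, -0.84 and 0.23 at 6, 24 and 48 h in Bank1-/- cells, against 0.22, 0.30 and 0.29 in WT cells. Without Bank1-/- 0 h replicate 5 the Bank1-/- values were -0.43, -1.04 and 0.03.

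**Figure D1:**
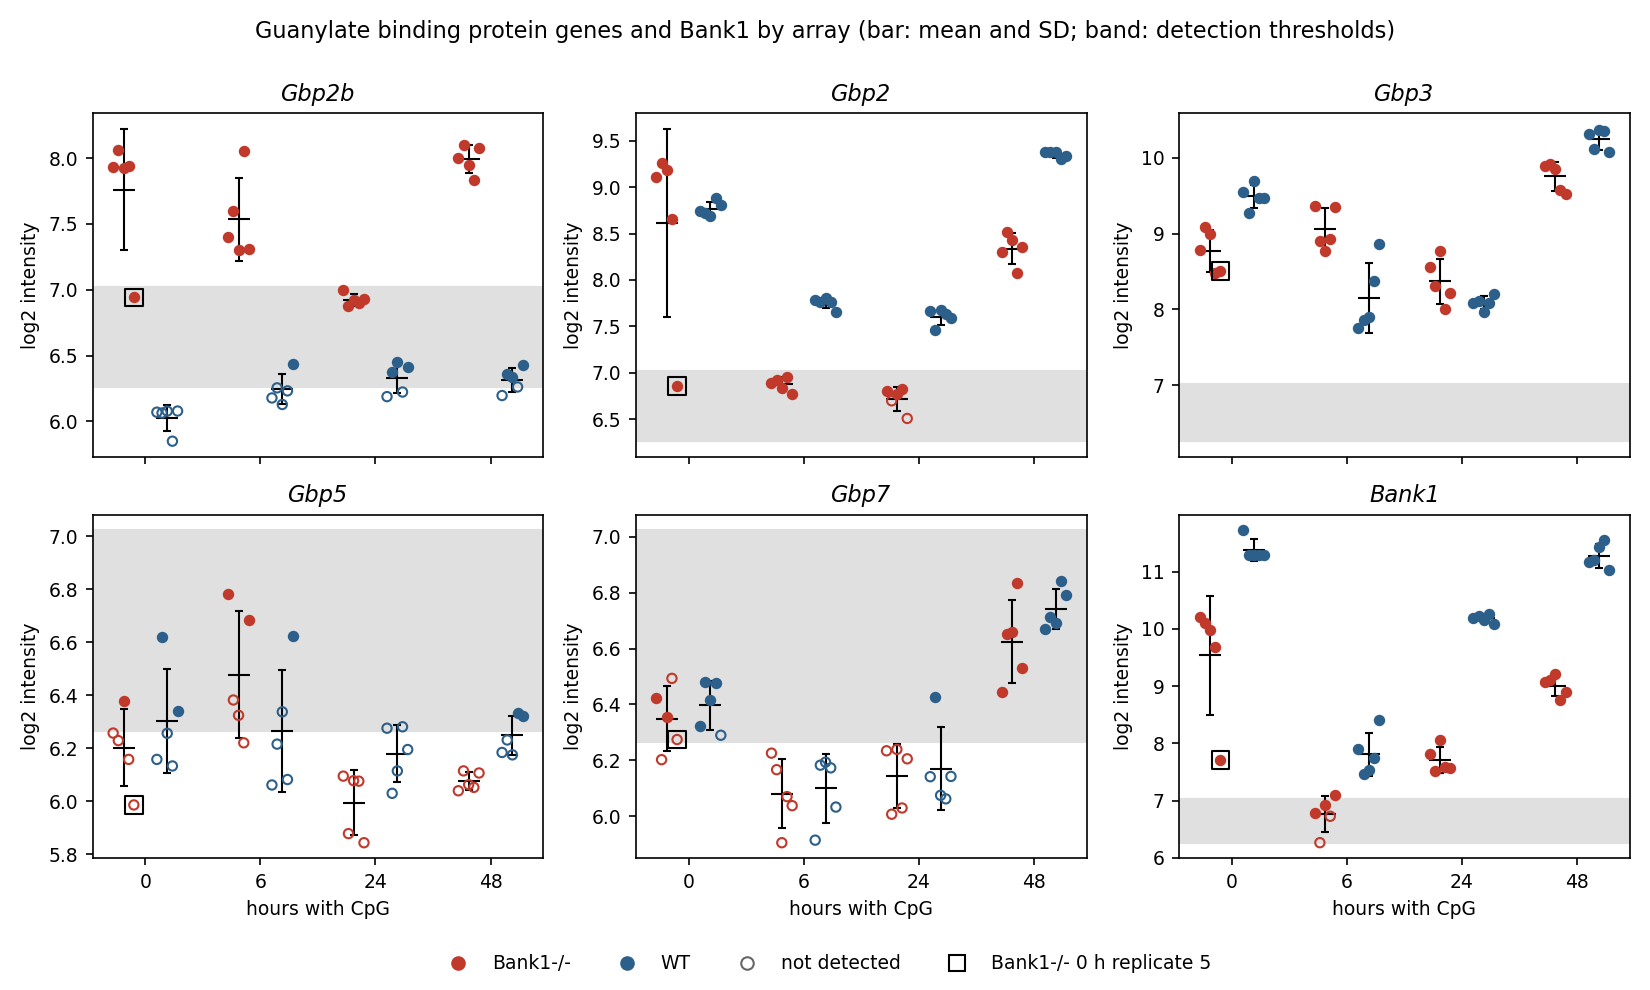
Log2 intensity (y axis) of the named probes of the 5 tested guanylate binding protein genes and of Bank1 on each array, by hours with CpG (x axis); filled points are above the array's detection threshold, open points are not, bars give mean and SD of 5 arrays, and the band spans the thresholds of 6.26 to 7.02. Gbp2b lies above WT at all 4 times, Gbp2 lies below WT at 6, 24 and 48 h, and the boxed Bank1-/- 0 h replicate 5 sits at 6.94 for Gbp2b and 6.86 for Gbp2, below its group.

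Gbp2, a member that in mouse cells targets vacuoles of Toxoplasma and cytosolic bacteria, differed the other way during CpG culture. Its log2 intensity at 0 h was 9.11, 9.26, 9.19, 8.66 and 6.86 in Bank1-/- cells, against 8.74, 8.73, 8.69, 8.88 and 8.81 in WT cells. After 6 h it was 6.89, 6.93, 6.83, 6.96 and 6.77 in Bank1-/- cells, against 7.78, 7.76, 7.81, 7.76 and 7.66 in WT cells. Genotypes overlapped at 0 h, where 3 of the 5 Bank1-/- arrays were above every WT array, and were apart at 6 h with every Bank1-/- array lower. At 24 h the values were 6.81, 6.70, 6.77, 6.83 and 6.51 in Bank1-/- cells, against 7.66, 7.46, 7.68, 7.64 and 7.59 in WT cells. At 48 h they were 8.30, 8.51, 8.43, 8.07 and 8.36 in Bank1-/- cells, against 9.38, 9.38, 9.38, 9.30 and 9.33 in WT cells. Neither time had any overlap.

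The 0 h difference of Gbp2 was -0.15 ± 0.22 (SE, limma adjusted p = 0.835) and 0.29 without Bank1-/- 0 h replicate 5 (adjusted p = 0.139). After 6 h the difference was -0.88 ± 0.22 (limma adjusted p = 0.00465). Scaling arrays to their 75th percentile in place of quantile normalization ended that call (-0.53, adjusted p = 0.0869), as did array brightness as a covariate (-0.88, adjusted p = 0.0645). After 24 h the difference was -0.88 ± 0.22 and did not pass (limma adjusted p = 0.206). After 48 h it was -1.02 ± 0.22 and passed narrowly (limma adjusted p = 0.0483). The gene's spread estimate holds the low 0 h replicate 5. Without that library the 6, 24 and 48 h differences kept their size, and the adjusted p became 2.8e-09, 2.1e-08 and 3.6e-10. Leaving out any 1 of the 10 arrays of 48 h instead ended the 48 h call (differences between -1.06 and -0.95, highest adjusted p = 0.208). The 3 probes for Gbp2 did not behave alike: ILMN_3122961, used here, was above background on 38 of 40 arrays (3 of 5 in Bank1-/- cells at 24 h), ILMN_3047389 on 1 and ILMN_2605602 on 0.

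Over time Gbp2 fell early and came back in both genotypes. Its mean was 8.62 ± 1.01, 6.88 ± 0.08, 6.72 ± 0.13 and 8.33 ± 0.17 in Bank1-/- cells at 0, 6, 24 and 48 h (SD, n = 5 each), against 8.77 ± 0.08, 7.75 ± 0.06, 7.61 ± 0.09 and 9.35 ± 0.04 in WT cells. At 6 h against 0 h it fell by 1.74 in Bank1-/- cells (limma adjusted p = 2.5e-08) and by 1.02 in WT cells (adjusted p = 0.000148). At 48 h against 24 h it rose by 1.61 in Bank1-/- cells (adjusted p = 1.7e-07) and by 1.75 in WT cells (adjusted p = 3.1e-08). WT cells ended 0.58 above their own 0 h level (adjusted p = 0.0274). For Bank1-/- cells the 48 h against 0 h difference was -0.28 (adjusted p = 0.316), and -0.72 without 0 h replicate 5 (adjusted p = 2.2e-08).

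Gbp3, whose human namesake is reported to restrict influenza virus, was above background on every array. The sign of its genotype difference varied with time. That is a description, since 0 h helped choose the gene and of the later times only 6 h was called. At 0 h Gbp3 was 8.78, 9.09, 8.99, 8.49 and 8.51 in Bank1-/- cells, against 9.54, 9.27, 9.70, 9.47 and 9.47 in WT cells. After 6 h it was 9.37, 8.90, 8.77, 8.93 and 9.35 in Bank1-/- cells, against 7.76, 7.86, 7.90, 8.37 and 8.86 in WT cells. Every Bank1-/- array was below WT at 0 h, while at 6 h the Bank1-/- arrays were above WT except that WT replicate 5, at 8.86, fell within their range. After 24 h the values were 8.56, 8.30, 8.77, 8.01 and 8.21 in Bank1-/- cells, against 8.08, 8.12, 7.96, 8.09 and 8.20 in WT cells. After 48 h they were 9.89, 9.92, 9.85, 9.58 and 9.52 in Bank1-/- cells, against 10.31, 10.11, 10.36, 10.35 and 10.08 in WT cells. At 24 h genotypes overlapped, and at 48 h every Bank1-/- array was again below WT.

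The 0 h contrast helped choose Gbp3 and is described only: the difference was -0.72, and -0.66 without Bank1-/- 0 h replicate 5. After 6 h Gbp3 was higher in Bank1-/- cells by 0.92 ± 0.16 (SE, limma adjusted p = 1.1e-04), and with array brightness as a covariate the difference was 0.54 and not called (adjusted p = 0.0514). The 24 h difference was 0.28 ± 0.16 (limma adjusted p = 0.498) and the 48 h difference -0.49 ± 0.16 (adjusted p = 1), although the 48 h groups did not overlap. A second probe of Gbp3, ILMN_1244513, was above background on 40 of 40 arrays, as was the named ILMN_2918002. Its differences were 0.48 ± 0.12 at 6 h (limma adjusted p = 0.00466), 0.54 ± 0.12 at 24 h (adjusted p = 0.0825, and 0.0104 without Bank1-/- 0 h replicate 5) and -0.38 ± 0.12 at 48 h (adjusted p = 0.839). Both probes had the same sign at all 4 times, and with the second probe the genotypes did not overlap at any of them.

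Within both genotypes Gbp3 rose late in culture. Its mean was 8.77 ± 0.27, 9.06 ± 0.28, 8.37 ± 0.30 and 9.75 ± 0.19 in Bank1-/- cells at 0, 6, 24 and 48 h (SD, n = 5 each), against 9.49 ± 0.15, 8.15 ± 0.46, 8.09 ± 0.09 and 10.24 ± 0.14 in WT cells. At 48 h against 24 h it rose by 1.38 in Bank1-/- cells (limma adjusted p = 4.7e-09) and by 2.15 in WT cells (adjusted p = 9.1e-14). Differences from 0 h use values that chose this gene too and are described with no test. They were 0.29, -0.40 and 0.98 at 6, 24 and 48 h in Bank1-/- cells, against -1.34, -1.40 and 0.75 in WT cells.

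Gbp5, which promotes inflammasome assembly in macrophages, and Gbp7, reported to serve the oxidative burst in mouse macrophages, sat at the edge of detection. The named Gbp5 probe was above background on 8 of 40 arrays and ranged between 5.84 and 6.78 over all arrays. At 48 h it was above background on 0 of 5 Bank1-/- and 2 of 5 WT arrays. After 6 h its values were 6.78, 6.38, 6.32, 6.22 and 6.68 in Bank1-/- cells, against 6.06, 6.22, 6.34, 6.08 and 6.62 in WT cells. These groups overlapped (difference 0.21 ± 0.11, SE, limma adjusted p = 0.138). Leaving out the high WT replicate 5 gave 0.30 (adjusted p = 0.0218). The second Gbp5 probe, ILMN_1218150, was above background on 3 arrays, all of them Bank1-/- at 6 h, and was not tested. After 48 h every Bank1-/- array was below WT for the named probe, at 6.08 ± 0.03 against 6.25 ± 0.07 (SD, n = 5 each), but the difference of -0.17 was not called (adjusted p = 1). Within Bank1-/- cells the Gbp5 mean of 6.48 at 6 h stood above the 0 h mean of 6.20 (adjusted p = 0.0246, and 0.0749 without 0 h replicate 5), and the mean of 5.99 at 24 h stood below that at 6 h (adjusted p = 0.000231).

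Gbp7 moved with time and was not called between genotypes at any of the 4 times. Its named probe was above background on 17 of 40 arrays, including 5 of 5 at 48 h in Bank1-/- cells and 5 of 5 in WT cells. After 48 h it was 6.45, 6.65, 6.66, 6.83 and 6.53 in Bank1-/- cells, against 6.67, 6.71, 6.69, 6.84 and 6.79 in WT cells, with overlapping ranges (difference -0.12, 95% interval -0.29 to 0.05). At 6 h no array of either genotype was above background, with means of 6.08 in Bank1-/- and 6.10 in WT cells, below the 0 h means of 6.35 (limma adjusted p = 0.00691) and 6.40 (adjusted p = 0.00254). At 48 h Gbp7 was at least 1.08-fold above 24 h in Bank1-/- cells (difference 0.48, adjusted p = 1.2e-05) and 0.57 higher in WT cells (adjusted p = 5.9e-07). It was also above 0 h by 0.28 in Bank1-/- cells (adjusted p = 0.00753) and by 0.35 in WT cells (adjusted p = 0.000856). With 75th percentile scaling the 6 h change was -0.15 in Bank1-/- cells (adjusted p = 0.358) and turned to 0.05 in WT cells (adjusted p = 0.747), and the 48 h against 24 h change was 0.29 in Bank1-/- cells (adjusted p = 0.0688). The other Gbp7 probe, ILMN_2860649, was above background on 1 array.

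The chromosome 5 members stayed below detection. Gbp4 (ILMN_2606792) was above background on 0 of 40 arrays, with values between 5.81 and 6.38. Gbp6 (ILMN_2653249) was likewise at 0 of 40 arrays, with values between 5.67 and 6.00. Their genotype and time differences could therefore not be measured, and all contrasts between members on chromosome 3 and on chromosome 5 are limited to detection: 5 of 5 against 0 of 2 passed the filter.

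Counted by comparison, 3 of 5 tested members were called between genotypes at 6 h (Gbp2b and Gbp3 higher, Gbp2 lower), against 23.6% of all probes tested. At 24 h 0 of 5 were called by limma with all arrays, against 0.0644% of all probes, while 2 had an unadjusted p under 0.05 and both, Gbp2b and Gbp2, were called without Bank1-/- 0 h replicate 5 (0.204% of all probes). At 48 h 2 of 5 were called, Gbp2b higher and Gbp2 lower, against 0.113% of all probes, while 3 had an unadjusted p under 0.05, Gbp3 among them. At 0 h, which chose the family, 2 of 5 were called against 1.49%, and nothing is read from that count. The median difference over the 5 members was 0.21, -0.03 and -0.17 at 6, 24 and 48 h, beside 0.03, -0.02 and -0.01 over all probes tested, since members differed in both directions. Without overlap of genotypes were 2 of 5 members at 0 h (3.11% of all probes, again not read), 2 of 5 at 6 h (6.83%), 2 of 5 at 24 h (4.35%) and 4 of 5 at 48 h (1.47%), the exception at 48 h being Gbp7. Of those at 48 h, Gbp5 was above background on 0 of 5 Bank1-/- and 2 of 5 WT arrays, so its values lay at or below detection.

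**Figure D2:**
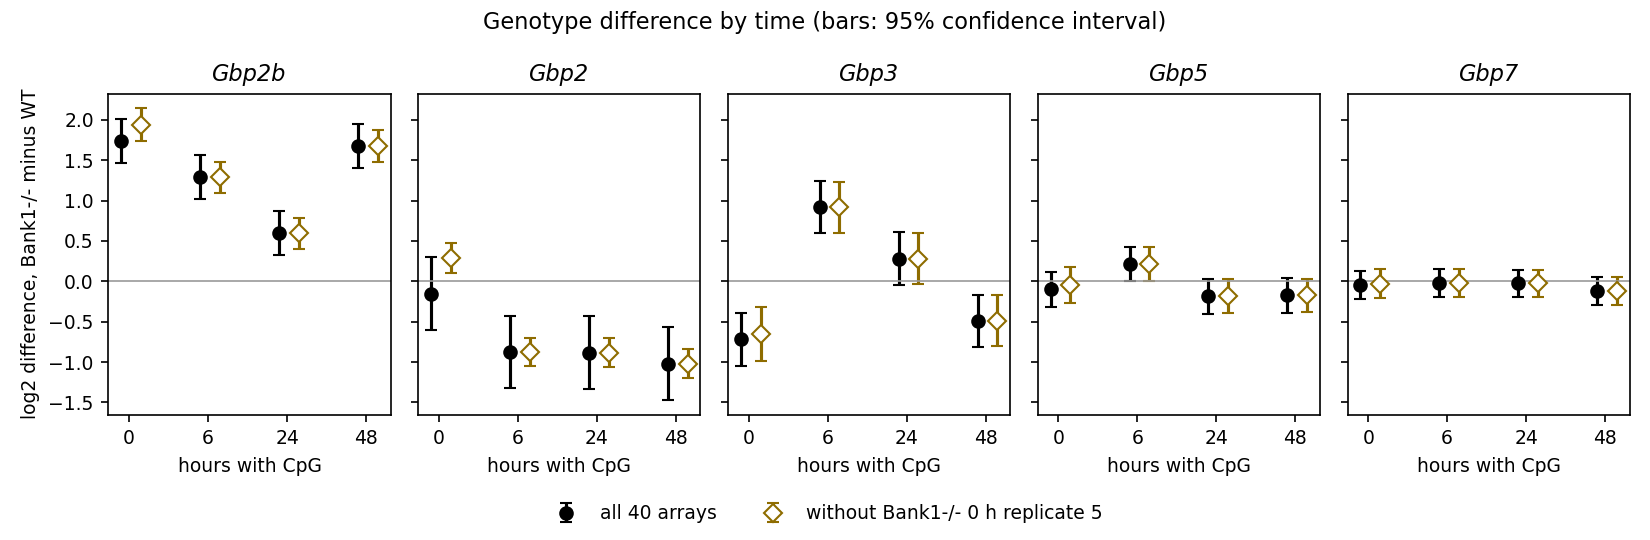
Log2 difference, Bank1-/- minus WT (y axis), of each tested member by hours with CpG (x axis), as estimates with 95% confidence intervals; black circles use all 40 arrays and open diamonds leave out Bank1-/- 0 h replicate 5. Gbp2b is above 0 throughout, with 1.68 at 48 h, Gbp2 is between -0.88 and -1.02 at 6, 24 and 48 h with narrower intervals once that array is left out, and Gbp3 crosses 0.

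Differences of response, the change from 0 h in Bank1-/- cells minus that in WT cells, subtract the 0 h values that chose Gbp2b and Gbp3. For these genes they are a description with no test. Gbp3 had 1.64 at 6 h, 1.00 at 24 h and 0.23 at 48 h, and its second probe 0.99, 1.06 and 0.14. Gbp2b had -0.45, -1.14 and -0.06 at these times, with WT 0 h below background on every array. Of the 5 tested members 1, 2 and 0 were past the threshold at 6, 24 and 48 h, against 9.67%, 0.488% and 0.188% of all probes. Those past it were Gbp2b and Gbp3. Without Bank1-/- 0 h replicate 5 the counts were 3, 3 and 1 (11.4%, 0.698% and 0.306% of all probes), with Gbp2 among them at each time. Nothing is read from these counts. At 48 h Gbp2 alone had an unadjusted p under 0.05 by limma. The differences of response of Gbp2 were -0.72, -0.73 and -0.87 at 6, 24 and 48 h (limma adjusted p = 0.131, 0.308 and 0.538), and -1.16, -1.17 and -1.31 without Bank1-/- 0 h replicate 5 (adjusted p = 4.8e-08, 1.0e-07 and 7.1e-09).

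Changes within a genotype were common among all probes, and the members' counts were read against that. In Bank1-/- cells 3 of 5 members were called at 6 h against 0 h (57.2% of all probes), 4 at 24 h (56.3%) and 2 at 48 h (46.5%). A further 3 were called at 24 h against 6 h (48.1%) and 4 at 48 h against 24 h (50.5%). In WT cells 3 of 5 were called at 6 h against 0 h (64%), 3 at 24 h (61%) and 3 at 48 h (49.9%). At 48 h against 24 h 3 were called (50.3%), and at 24 h against 6 h 0 (53.6%), with 0 members at an unadjusted p under 0.05. Without Bank1-/- 0 h replicate 5 the counts at 6, 24 and 48 h against 0 h were 3, 5 and 3 of 5 in Bank1-/- cells (61.8%, 62.2% and 54.2% of all probes). In WT cells they were 4, 4 and 4 (66.4%, 62.2% and 53.7%). Most of these shares are near that of all probes, those against 0 h include Gbp2b and Gbp3, and none is read as a result about the family. With all arrays and quantile normalization, each called member was lower at 24 h than at 0 h and higher at 48 h than at 24 h in both genotypes. With 75th percentile scaling Gbp7 in Bank1-/- cells was at 0.01 for 24 h against 0 h, and without Bank1-/- 0 h replicate 5 Gbp2b was called too in WT cells, 0.30 higher at 24 h than at 0 h.

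Ordered by group means, Gbp2b ran Bank1-/- 48 h, 0 h, 6 h and 24 h, then WT 24 h, 48 h, 6 h and 0 h. Neighbours in that order did not overlap between Bank1-/- 6 h and 24 h, between Bank1-/- 24 h and WT 24 h, and between WT 6 h and 0 h, and overlapped elsewhere. Gbp2 ran WT 48 h, WT 0 h, Bank1-/- 0 h, Bank1-/- 48 h, WT 6 h, WT 24 h, Bank1-/- 6 h and Bank1-/- 24 h. Its neighbours were apart between WT 48 h and WT 0 h, Bank1-/- 48 h and WT 6 h, and WT 24 h and Bank1-/- 6 h. Without replicate 5 the Bank1-/- 0 h mean of Gbp2 was 9.06, above the WT 0 h mean of 8.77, and Bank1-/- 0 h no longer overlapped Bank1-/- 48 h. For Gbp3, WT 48 h stood apart from Bank1-/- 48 h, and the other neighbours overlapped down to WT 24 h. For Gbp5 and Gbp7 all neighbours overlapped.

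Beside the other genes of the interval, Gbp2b and Gbp2 stood apart from most. Over the 3 times with CpG, Gbp2b was the 1 probe of 18630 (0.00537%) whose Bank1-/- arrays were above all WT arrays at each time. In the other direction 5 probes (0.0268%) were below WT at each of those times: Bank1 itself, Eif4e, Manba and Gbp2 on chromosome 3 and Ide on chromosome 19. Eif4e, the cap-binding translation initiation factor, lies 2.20 Mb from Bank1, Manba, a lysosomal mannosidase, 0.48 Mb, and Gbp2 6.29 Mb. Of 43 other tested genes within 10 Mb of Bank1, 1 was higher and 3 were lower in Bank1-/- cells over the 4 times. Those values were 0.45 for Gstcd, -1.18 for Eif4e, -0.38 for Manba and -0.22 for Pkn2, a protein kinase gene near the cluster, with all probes called at 0.762%. Because that mean holds the 0 h values, the member values of 1.32 for Gbp2b, -0.73 for Gbp2, 0.00 for Gbp3, -0.06 for Gbp5 and -0.05 for Gbp7 are set beside them as a description.

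**Figure D3:**
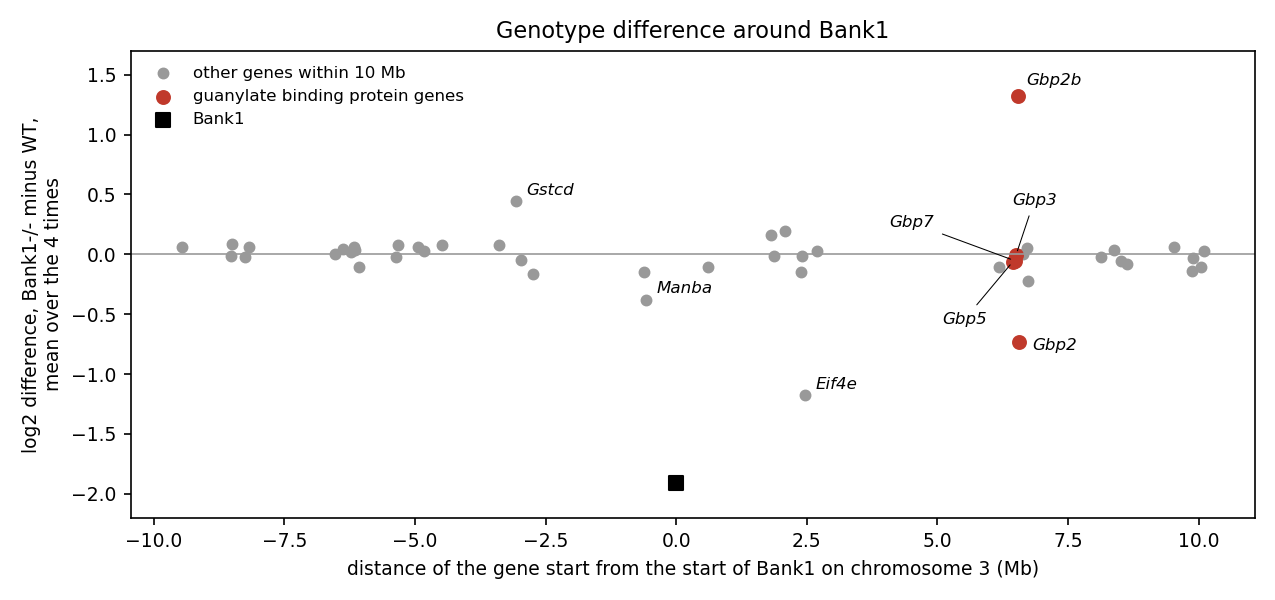
Log2 difference, Bank1-/- minus WT, averaged over the 4 times (y axis) against the distance of each gene's start from the start of Bank1 on chromosome 3 in Mb (x axis), for tested genes within 10 Mb. Among the 5 adjacent guanylate binding protein genes Gbp2b is at 1.32 and Gbp2 at -0.73, with Gbp3, Gbp5 and Gbp7 near 0, and Eif4e is at -1.18.

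The 6 h genotype difference coincided with differences in array brightness and in red cell transcripts. Mean raw intensity at 6 h was 507, 348, 443, 290 and 511 on Bank1-/- arrays, against 146, 231, 232, 206 and 455 on WT arrays. On the bright WT replicate 5 the values were 6.44 for Gbp2b, below every Bank1-/- array, 7.66 for Gbp2, above every Bank1-/- array, and 8.86 for Gbp3, inside the Bank1-/- range. With log2 brightness as a covariate the 6 h difference was 1.32 for Gbp2b (limma adjusted p = 1.6e-06), -0.88 for Gbp2 (adjusted p = 0.0645) and 0.54 for Gbp3 (adjusted p = 0.0514), so that 1 of 5 members was called, against 3.04% of all probes. Erythroid markers averaged between 7.69 and 8.11 on Bank1-/- 6 h arrays, against 6.94 to 7.20 on WT 6 h arrays. Of 4 tested erythroid genes 3 were higher, with a median of 1.10, and of the 6 on the array Epb42 was at background on every Bank1-/- 6 h array, and Epb42, Slc4a1, Sptb and Alas2 on every WT 6 h array. With brightness as a covariate 3 of the 4 erythroid genes were still called. Of 4 tested monocyte, macrophage and granulocyte genes 2 were higher, Adgre1 by 0.92 (limma adjusted p = 6.8e-06, called with brightness too) and S100a8 by 0.33 (adjusted p = 0.0387). The others were Lyz2 at 0.15 (adjusted p = 0.663) and Csf1r at -0.30 (adjusted p = 0.0551). Of 3 platelet genes Pf4 was higher by 0.72 (adjusted p = 0.00696), with Gp9 at 0.05 and Ppbp at -0.16, neither called. With brightness as a covariate S100a8 and Pf4 were no longer called. Of 6 T cell markers on the array, Cd3d, Cd3e, Cd4 and Cd8a were at background on every 6 h array of both genotypes, and Cd3g and Lat on every WT 6 h array but not on every Bank1-/- one. The erythroid marker mean as a covariate was among the 14 alternative settings fitted for the 6 h difference. Over these settings that difference ranged between 0.79 and 1.35 for Gbp2b, called in 14, and between -1.82 and -0.53 for Gbp2, called in 12. For Gbp3 it ranged between 0.54 and 1.76, called in 13. How much of the 6 h differences comes from brightness or from RNA of these other cells was not tested.

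Other genes of the interferon pathway were higher in Bank1-/- cells at 6 h in the groups nearest to the members. Over 8 lists with 70 tested genes, 30 were higher and 2 lower at 6 h, with a median difference of 0.34, against 13.4% higher and 10.2% lower among all probes and a median of 0.03. These lists were chosen with earlier results of these data known, so their counts here and below are a description. The 3 ligand genes tested were Ifng, Il12a and Il18, with no type I interferon gene among them. Of these 0 were higher and 1 was lower, Il12a at -0.46, a subunit of a cytokine that induces interferon-gamma. Ifng itself was at 0.22 (limma adjusted p = 0.185). Among 6 receptor and Janus kinase genes 0 were called by limma at 6 h, with Jak1 at 0.55 (adjusted p = 0.0656).

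Of 8 transcription factors of the response 4 were higher and 0 lower at 6 h (median 0.45), among them Irf1 by 1.48 and Irf7 by 0.75. Irf1 drives guanylate binding protein genes in other mouse cells. The nearest relatives by function, immunity-related GTPases and other large inducible GTPases, were higher for 5 of 6 tested genes (median 1.21). Ifi47 was higher by 1.58, Gvin1 by 1.49, Irgm2 by 1.32 and Igtp by 1.11, while Irgm1 was at 0.12 (limma adjusted p = 0.673). With brightness as a covariate 5 of these 6 genes were called again, and 2 of the 8 transcription factors, Irf1 and Irf7.

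Antiviral genes were higher for 12 of 20 and lower for 0 (median 0.66), among them Trim30a by 1.95, Rsad2 by 1.32, Isg15 by 1.18 and Eif2ak2 by 1.03, the double-stranded RNA-activated kinase. Of 6 inhibitors of interferon signalling Usp18, which removes ISG15 and blocks the type I receptor, was higher by 1.63 and Socs1 by 0.31. Of 14 antigen presentation genes 5 were higher and 1 lower (median 0.04), with Nlrc5 at 1.01, Ido1 at 0.63, Psmb9 at 0.47 and Tapbp at -0.90. Among 8 inflammasome genes, the machinery that guanylate binding proteins serve, Casp1 was higher by 0.50 and Casp4 by 0.54. With brightness as a covariate 11 of the 20 antiviral genes were called higher, 3 of the 14 antigen presentation genes (Psmb9, Cxcl10 and Ido1) and, of the inhibitors, Usp18. Socs1, Nlrc5, Tapbp, Casp1, Casp4 and Il12a were no longer called. At 24 and 48 h 0 of the 70 genes were called by limma, against 0.0644% and 0.113% of all probes, and 6 and 3 had an unadjusted p under 0.05.

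**Figure D4:**
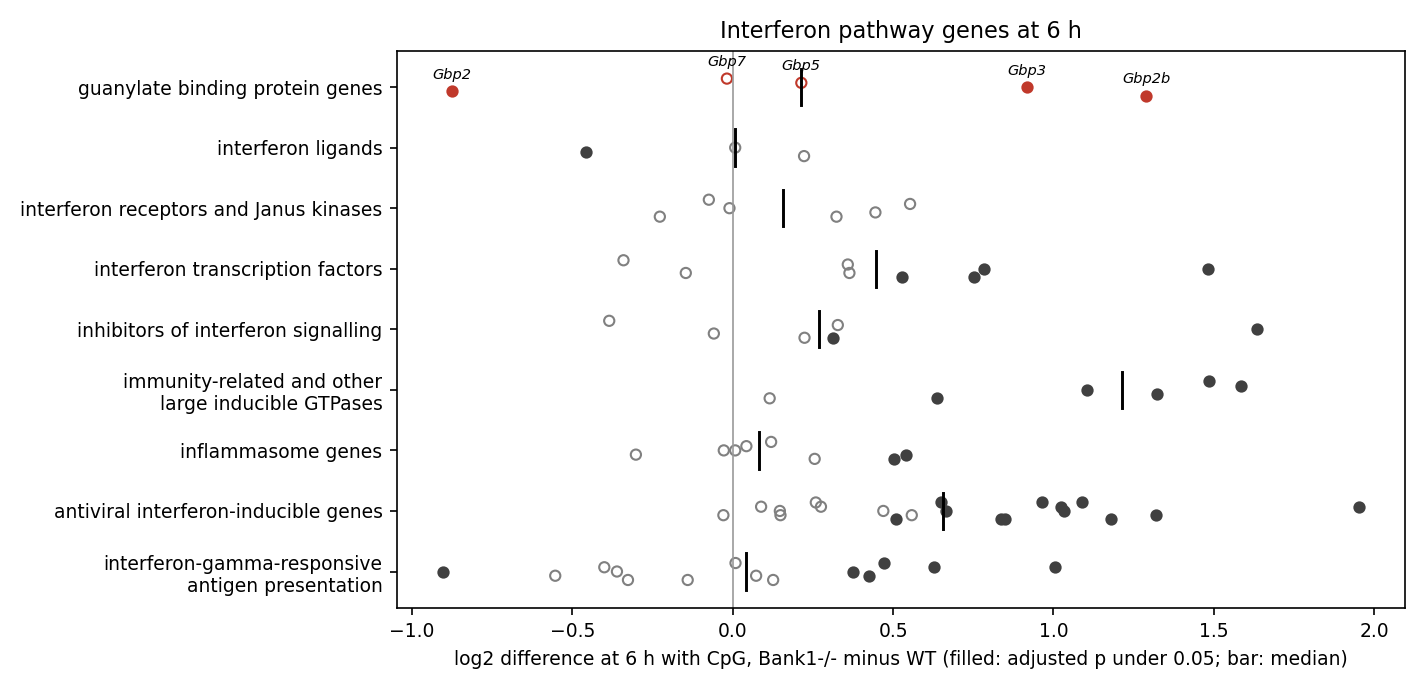
Log2 difference at 6 h with CpG, Bank1-/- minus WT (x axis), of the 5 tested members and of the tested genes of 8 lists of the interferon pathway (y axis); filled points have a limma adjusted p under 0.05 and bars mark medians. Medians of the immunity-related GTPases (1.21), antiviral genes (0.66) and transcription factors (0.45) lie right of 0, and Gbp2 at -0.88 lies on the other side from Gbp2b and Gbp3. The lists were chosen with earlier results of these data known.

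The pathway genes also changed with time. In Bank1-/- cells 27 of the 70 were higher and 24 lower at 6 h than at 0 h, against 28.2% higher and 29% lower among all probes. At 48 h against 24 h 41 were higher and 6 lower in Bank1-/- cells, against 25.8% and 24.7% of all probes. In WT cells 13 were higher and 40 lower at 6 h than at 0 h (30.6% and 33.4% of all probes). At 48 h against 24 h 38 were higher and 7 lower in WT cells (24.5% and 25.8% of all probes). The immunity-related and other large GTPases had a median 6 h change of 0.71 in Bank1-/- cells and -0.51 in WT cells. Gbp2 fell in both.

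By profile over the 40 arrays, which share the time course and the normalization, the genes most like each member were in none of the interferon lists. For Gbp2b they were Pisd-ps3 (Pearson r = 0.72), Amy2a5 (0.56) and Adcy6 (0.53). For Gbp2 they were Pcmtd1, 2610035D17Rik and Slc15a2 (0.88 each). For Gbp3 they were Rogdi (0.92), Parp4 (0.91) and Eif2s3y (0.91). The dim Gbp5 and Gbp7 were most like Slc39a9 (0.79), Jkamp (0.79) and Atmin (0.78), and like 4933412E12Rik (0.91), Ceacam2 (0.89) and Stard10 (0.89). Guanylate binding protein genes are close in sequence, and whether a probe also binds a neighbour's transcript was not tested, since probe sequences were not used here.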

How the data were processed

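The members and lists were chosen with earlier results of these data known. The deposited table holds raw intensity per bead-array probe, per the file headers, and 8 of its columns that match no sample were not used. Detection p-values are announced in the deposited header but absent from the columns. The authors' series matrix holds log2 values, and how they were made is not given in the sources used here. Set against the raw table they equalled quantile-normalized log2 intensity without background correction (largest difference 4.99e-09).

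Raw intensity was background-corrected with normexp (offset 50), quantile-normalized and put on the log2 scale in R 4.3.3 with limma 3.58.1. Figures and promoters used Python 3.11.15, numpy 2.4.6, pandas 2.3.3 and matplotlib 3.10.9. A probe counted as detected above the 99th percentile of 1287 olfactory receptor probes on its array, and 18630 of 45281 probes, detected on at least 5 of 40 arrays, were tested. The platform annotation gives 1 symbol for 34885 probes, several for 18 and none for 10378. One coefficient per group was fitted over all 40 arrays (32 residual degrees of freedom) with empirical Bayes, and 18 comparisons were each adjusted over all tested probes by Benjamini-Hochberg, with a threshold of 0.05. Replicates are called biological in the labels.

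Named genes are the 7 members with every probe, Bank1, up to 4 genes with the smallest p of each list per comparison, and the 3 genes outside the family with the highest Pearson r per tested member. Other genes were chosen after their values were seen. On simulated data for the 6 h comparison over 18630 probes, 180 of 200 changed probes of log2 size 1 were recovered (90%), and 5 false calls were made (2.70% of calls). The simulation made the 6 h genotypes equal apart from the changed probes and drew noise separately for each probe. It therefore does not cover differences shared by whole arrays, such as those in brightness at 6 h. Alternatives covered background correction, scaling, the probe filter, array weights, brightness and erythroid covariates, the replicate block, fits to the groups compared only, and leaving out each array. Those that join a covariate or the block with the omission of Bank1-/- 0 h replicate 5, and the list counts with brightness, were chosen after seeing the data. Slide and scan dates are not in the files used here. The number of arrays limits precision. Some genes of the transcription factor list are not reported here by name.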

Additional observations from a re-analysis of the deposited data

Results flagged for a closer look

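The 5 tested members in each of the 8 groups gave 40 sets of 5 values, and 4 sets had an array far from the others. Chance gives about 1 in 20 sets if they are independent, which these are not, since the members share arrays. Gbp2b was 6.94 on Bank1-/- 0 h replicate 5, with the other Bank1-/- 0 h arrays between 7.93 and 8.06. On the same array Gbp2 was 6.86, with the others between 8.66 and 9.26. Gbp2b was 5.85 on WT 0 h replicate 4, with the others between 6.06 and 6.08, all below detection. Gbp7 was 6.43 on WT 24 h replicate 2, with the others between 6.06 and 6.14.

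The change from 0 h in Bank1-/- cells minus that in WT cells was -1.14 for Gbp2b at 24 h, 1.64 for Gbp3 at 6 h and 1.00 for Gbp3 at 24 h. These stand here because the difference passed limma's threshold, but each subtracts 0 h values that chose these genes, so they are a description and no independent test.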

How the results depend on the processing

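Limits: probes near background give compressed differences, Gbp4 and Gbp6 could not be measured, and the 6 h groups differ in array brightness. Of the log2 differences recomputed under settings other than leaving out 1 array, 1120 kept their side of the threshold, 72 passed newly, 38 no longer passed and 7 reversed. A change of direction counted as reversed only where the main or the alternative fit passed the threshold. The 1120 therefore include differences that passed in neither fit and changed sign. The cause of these changes was not tested. The reversed values were Gbp2 Bank1-/- against WT at 0 h, 0.39 with array weights and 0.38 with the erythroid covariate and no Bank1-/- 0 h replicate 5. With 75th percentile scaling they were 0.011 for Gbp7 in Bank1-/- cells at 24 h against 0 h, 0.051 for Gbp7 and 0.32 for Gbp5 in WT cells at 6 h against 0 h, and -0.30 for Gbp7 in WT cells at 24 h against 6 h. The last was 0.19 for Gbp2b in Bank1-/- cells at 24 h against 6 h, with the erythroid covariate.

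Only the larger moves from a main count are named by setting here, and smaller moves are not all listed. The number of the 5 tested members called between Bank1-/- and WT at 0 h was 2 (1 to 3 over the alternatives). It was 1 with 75th percentile scaling, with only the groups compared, and with the replicate block and no Bank1-/- 0 h replicate 5. At 6 h it was 3 (1 to 4 over the alternatives), and 1 with brightness as a covariate. At 24 h it was 0, 1 with the erythroid covariate, and 2 with array weights, with only the groups compared, and with the brightness covariate, the erythroid covariate or the replicate block each without Bank1-/- 0 h replicate 5. At 48 h it was 2, and 1 with 75th percentile scaling, no filter on dim probes, or the brightness covariate. Within Bank1-/- cells, 6 h against 0 h gave 3, and 1 with only the groups compared. There, 24 h against 0 h gave 4 (2 to 5 over the alternatives), and 2 with 75th percentile scaling or only the groups compared. Likewise 48 h against 0 h gave 2, 1 with 75th percentile scaling or only the groups compared, and 4 with array weights. In WT cells, 24 h against 0 h gave 3, and 5 with array weights. At 24 h against 6 h WT cells gave 0, 2 with 75th percentile scaling or the brightness covariate with and without Bank1-/- 0 h replicate 5, and 3 with the erythroid covariate without it. The 6 h differences of response gave 1, 2 with 75th percentile scaling, 3 with the erythroid covariate, array weights, or the brightness covariate or replicate block without that array, and 4 with the erythroid covariate without it. The 24 h ones gave 2 (1 to 3 over the alternatives), and 1 with 75th percentile scaling. The 48 h ones gave 0, and 1 with array weights or with the brightness covariate, erythroid covariate or replicate block without that array.

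Leaving out 1 array at a time moved the members called to between 0 and 2 at 24 h and between 1 and 2 at 48 h between genotypes, and to between 2 and 5 in Bank1-/- cells at 24 h against 0 h. The differences of response ranged between 1 and 3 at 6 h, 1 and 3 at 24 h and 0 and 1 at 48 h. The replicate block changed 0 of 18 counts and 0 of 90 log2 differences, with 3 members called at 6 h between genotypes and 2 at 48 h. Over 20 pairs of a Bank1-/- and a WT array of the same number and time, deviations correlated between -0.267 and 0.269, 9 of them above 0.1 and 4 best with their own number. The main fit therefore did not pair samples by number. These correlations cannot show whether arrays of different times within a genotype came from the same mouse.

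Over all probes, 277 were called between Bank1-/- and WT at 0 h (6 to 1440 over the alternatives), 4392 at 6 h (566 to 7259), 12 at 24 h (2 to 1728), 21 at 48 h (14 to 83) and 142 over the 4 times (62 to 2259). The differences of response gave 1802 at 6 h (137 to 5394), 91 at 24 h (28 to 2219) and 35 at 48 h (9 to 274). Counts in Bank1-/- cells were 10657 at 6 h against 0 h (5747 to 12719), 10486 at 24 h (5664 to 13074), 8665 at 48 h (4833 to 12671), 8963 for 24 h against 6 h (4049 to 10058) and 9411 for 48 h against 24 h (5110 to 11236). WT counts were 11921 (6296 to 13000), 11360 (6120 to 13754), 9295 (5213 to 12328), 9982 (5390 to 11395) and 9376 (5076 to 13074) in the same order. With 75th percentile scaling the median of all probes at 6 h between genotypes moved to 0.16, and 84.5% of calls were higher in Bank1-/- cells, against 56.8% with quantile normalization; for the 6 h differences of response these shares were 90.8% and 54.2%, with a median of 0.11. At 0 h they were 21% and 32.5%, at 24 h 0% and 50%, and over the 4 times 75.8% and 50.7%.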
